A study of Homo sapiens with 6 samples.

Results

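The genes described here are those of the NRF2 and KEAP1 switch of the oxidative stress response. They comprise the transcription factors NFE2L2 and NFE2L1, the repressor KEAP1 with its ligase scaffold CUL3, the competing repressor BACH1, the small MAF partners MAFG and MAFK, and the target genes NQO1 and OSGIN1. The 9 genes were chosen by name, all 9 were found among the 21961 symbols of the count table, and all 9 passed the filter on low counts that left 14617 genes. The cells were HaCaT, a spontaneously immortalised line of human keratinocytes, and their RNA was sequenced in 3 libraries titled Nvs and 3 titled mod. The design text of the series sets UVB-irradiated HaCaT cells that also received nanovesicles from beet (named BVNV there) against UVB-irradiated HaCaT cells without them. The labels of the Nvs libraries give the treatment as control and name neither UV nor vesicles, whereas those of the mod libraries read UV-induced. Which text holds was not decided from the values, so the groups are called Nvs and mod. No source used here gives the UVB dose, the vesicle dose, the times or whether replicates came from separate cultures. The p-values thus rest on the spread of 3 libraries a group, and that spread may be technical only.

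NRF2, the protein of NFE2L2, activates genes of antioxidant defence and detoxification from antioxidant response elements in DNA, which it binds as a pair with a small MAF protein. In unstressed cells KEAP1 holds NRF2 on a CUL3 ubiquitin ligase and has it degraded, and oxidants or electrophiles that modify KEAP1 let NRF2 accumulate. NRF2 is thus controlled largely at the level of its protein, which RNA sequencing does not measure. In keratinocytes the pathway is known for its part in the defence against ultraviolet light and in the control of the cornified envelope.

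All 6 libraries carried keratinocyte RNA, but they differed in composition. The summed level of 10 keratinocyte markers was 42886 to 45271 CPM in Nvs and 37917 to 40963 CPM in mod, where CPM is counts per 1000000 counts, here those outside the mitochondrial genome. The markers of fibroblasts (4 found of 6 looked up), of melanocytes (3 of 5) and of leukocytes and endothelium (6 of 7) summed per list to at most 6.30 CPM in any Nvs library and 7.20 CPM in any mod library. Total counts were 41120058 to 44080808 in Nvs and 45637046 to 51369628 in mod. Transcripts of the mitochondrial genome took 51.8% to 53.3% of counts in Nvs and 29.8% to 31.4% in mod, so the share left for nuclear genes was smaller in Nvs. All later levels are given in CPM after TMM scaling unless another scale is named, and TMM sets the typical gene near no change, so a rise or fall below is relative to the typical gene. The fold change by library totals, under which the median gene stood at -0.77 on the log2 scale, is given beside each of the 9 genes. The part of the mitochondrial share in the results was not tested.

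Relative to the typical gene, 6 of the 9 genes were higher in Nvs, 2 were lower and 1 was not called; in bulk RNA, fewer cells with a transcript and less of it per cell cannot be told apart. NFE2L2, KEAP1, BACH1, MAFK, NQO1 and OSGIN1 rose, NFE2L1 and CUL3 fell, and MAFG did not pass the test, but by library totals all 9 values were below 0. The edgeR quasi-likelihood test, with an adjusted p under 0.05 as its threshold, called 22.8% of all tested genes higher and 20.5% lower in Nvs. The Nvs libraries lay wholly above the mod libraries in 6 of the 9 genes, against 27.0% of tested genes, and wholly below in 2, against 26.7%. In deposited FPKM, which is scaled by library totals, 7 of the 9 were wholly below and 0 wholly above, against 71.6% and 4.60% of tested genes. The rises were of 1.19 to 1.59 times, and the median change of the 9 genes was 0.37 on the log2 scale, where that of all tested genes was -0.01 and their upper quartile 0.38.

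**Figure D1:**
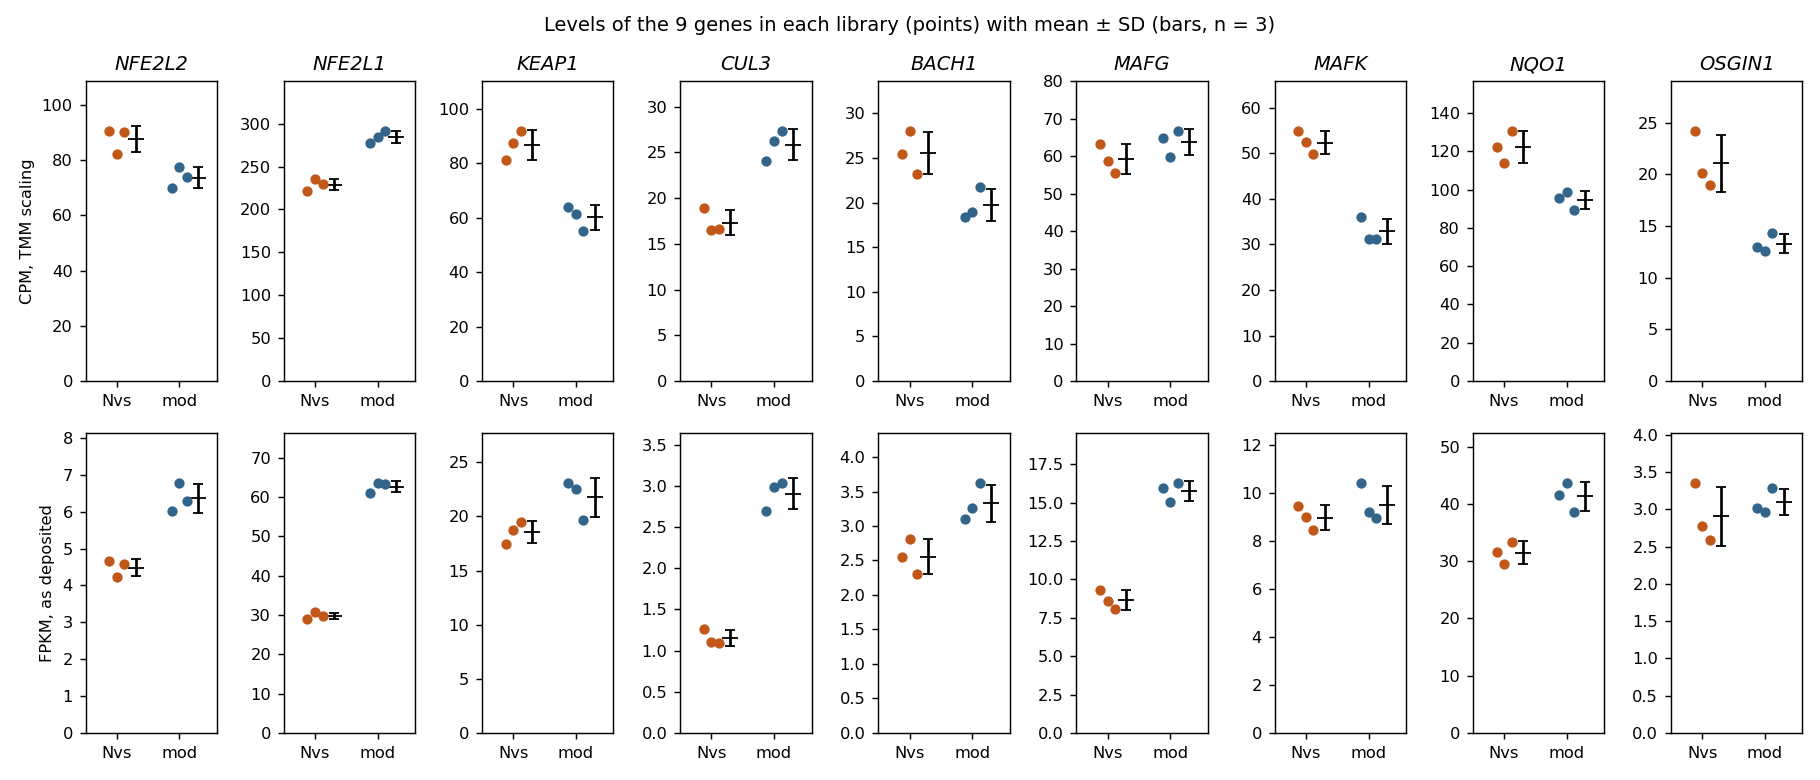
Level of each of the 9 genes in the 3 Nvs and 3 mod libraries, as CPM after TMM scaling (upper row) and as deposited FPKM (lower row), with points for libraries and bars for mean ± SD. In CPM the groups overlap for MAFG alone, and in FPKM, which follows library totals, 7 of the 9 genes lie wholly lower in Nvs, MAFK and OSGIN1 being the exceptions.

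NFE2L2, which encodes NRF2 itself, lies on the minus strand of chromosome 2, 177227595 to 177392697 (GENCODE release 29, GRCh38, as for every gene below). Its level was 90.5, 82.3 and 90.2 CPM in the Nvs libraries, against 69.8, 77.3 and 73.7 CPM in the mod libraries. Every Nvs library thus lay above every mod library, by a margin of a few CPM at the closest. The log2 fold change was 0.25 ± 0.06 (SE, edgeR adjusted p = 0.00473), the smallest rise among the 6, and -0.51 by library totals. Of all tested genes, 31.8% had a higher fold change. NFE2L2 overlaps AGPS on the opposite strand by 54 exonic bases, and AGPS fell (-0.37 ± 0.09, edgeR adjusted p = 0.00566). NFE2L2 also shares 1054 exonic bases with AC019080.1 on the same strand, which is not among the counted symbols. For the other genes, only overlaps with counted symbols are described below, and several have further overlaps with symbols that were not counted.

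NFE2L1 encodes a sister factor, also called NRF1, that sits in the membrane of the endoplasmic reticulum and is known for raising proteasome genes when the proteasome is inhibited. It lies on chromosome 17, 48048329 to 48061487, plus strand. Its level was 222, 235 and 230 CPM in Nvs libraries and 278, 285 and 291 CPM in mod libraries. The groups stood well apart, with a spread of about 7 CPM inside each. NFE2L1 fell by 0.31 ± 0.05 on the log2 scale (edgeR adjusted p = 0.000176), and its value by library totals was -1.07. Both sister factors thus passed the test in opposite directions relative to the typical gene, though both were below 0 by library totals.

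KEAP1 encodes the redox sensor and substrate adaptor that presents NRF2 to the ligase, on chromosome 19, 10486120 to 10503741, minus strand. It stood at 81.0, 87.3 and 91.8 CPM in Nvs and at 63.9, 61.2 and 55.1 CPM in mod. The lowest Nvs library was well above the highest mod library. The log2 fold change was 0.53 ± 0.07 (edgeR adjusted p = 3.78e-05), with -0.23 by library totals.

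CUL3 encodes the cullin that carries KEAP1 and the ubiquitin-loading machinery, on chromosome 2, 224470150 to 224585397, minus strand. Its level was 18.9, 16.5 and 16.6 CPM in Nvs and 24.0, 26.2 and 27.3 CPM in mod. CUL3 had the largest fall of the 9 genes, of 0.58 ± 0.10 on the log2 scale (edgeR adjusted p = 0.000362), and -1.33 by library totals. The adaptor and the scaffold of the ligase thus differed in opposite directions relative to the typical gene. CUL3 spans 115248 bases, and at that length the trend of fold change with gene span across all tested genes stood at -0.24. With this trend removed CUL3 was at -0.33 ± 0.10 and was still called (edgeR adjusted p = 0.0176).

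BACH1 encodes a haem-sensitive repressor that competes with NRF2 for small MAF partners and for response elements, HMOX1 being its best known target. It lies on chromosome 21, 29194071 to 29630751, plus strand. The Nvs libraries had 25.4, 28.0 and 23.2 CPM, against 18.4, 19.0 and 21.7 CPM in the mod libraries. The groups came close, at 23.2 CPM in the lowest Nvs and 21.7 CPM in the highest mod library. BACH1 rose by 0.37 ± 0.10 (edgeR adjusted p = 0.01004), and stood at -0.38 by library totals. The call was lost without mod replicate 1 (edgeR adjusted p = 0.0556) and without mod replicate 2 (0.0513). BACH1-IT1, an RNA counted from an intron of BACH1 with no exonic base in common, went the other way, with 0.916 ± 0.148 CPM in Nvs and 2.16 ± 0.493 CPM in mod (SD, n = 3, log2 fold change -1.23 ± 0.33, edgeR adjusted p = 0.00749).

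The small MAF proteins have no activation domain of their own and give NRF2, NRF1 or BACH1 their grip on DNA. MAFK, on chromosome 7, 1530714 to 1543043, plus strand, had 54.9, 52.5 and 49.8 CPM in Nvs and 36.1, 31.3 and 31.2 CPM in mod. MAFK rose by 0.67 ± 0.08 on the log2 scale, level with OSGIN1 as the largest rise of the 9 genes (edgeR adjusted p = 1.14e-05), with -0.09 by library totals. MAFK shares 809 exonic bases with TMEM184A on the opposite strand. The strand setting of the counting is not given, so reads of the shared part may belong to either gene. TMEM184A was also higher, by less (0.25 ± 0.07, edgeR adjusted p = 0.0126).

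MAFG, on chromosome 17, 81918270 to 81927714, minus strand, had 63.4, 58.8 and 55.5 CPM in Nvs and 64.9, 59.9 and 66.7 CPM in mod. The groups overlapped, and the log2 fold change of -0.11 ± 0.07 was not called (edgeR adjusted p = 0.228). Its 95% interval ran from -0.25 to 0.04. By library totals MAFG was at -0.87, below the median gene. It shares 105 exonic bases with SIRT7 on the same strand, which had 65.7 ± 7.84 CPM in Nvs and 65.4 ± 4.45 CPM in mod (SD, n = 3).

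NQO1 encodes a quinone reductase that is widely used as a readout of NRF2 activity, on chromosome 16, 69706996 to 69726951, minus strand. Its level was 122, 114 and 131 CPM in Nvs libraries and 95.8, 98.7 and 89.6 CPM in mod libraries. Every Nvs library was above every mod library. NQO1 rose by 0.37 ± 0.06 on the log2 scale (edgeR adjusted p = 0.000324), and its value was -0.39 by library totals.

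OSGIN1, an oxidative stress response gene whose product has been linked to growth inhibition and cell death, lies on chromosome 16, 83948282 to 83966332, plus strand. It had 24.2, 20.1 and 19.0 CPM in Nvs and 13.0, 12.6 and 14.3 CPM in mod. Nvs replicate 1 was the highest, and the other two Nvs libraries were still above all of mod. The log2 fold change was 0.67 ± 0.12 (edgeR adjusted p = 0.000420), with -0.09 by library totals. Only 14.1% of tested genes had a higher fold change.

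Antioxidant response elements are the sites that NRF2, BACH1 and their MAF partners bind, and their letters were looked for in the 250 bases before each start listed in RefSeq (GRCh38.p14), of which a gene can have several. The first motif searched was TGAC, any 3 bases, then GCA, and the second was TGA, any base, then TCAGCA, on both strands, and a site can match both. Of 35116 promoters, 2.59% held the first and 0.336% the second, and of 27305 genes 3.46% had a promoter with either. Promoters were found for 8 of the 9 genes, all but MAFK, and 2 of these 8 held a match: OSGIN1 and KEAP1. These sites are printed here with the 5 found in the NRF2 target list, those of GCLM, TXNRD1, GPX2, EPHX1 and CBR1, each read 5′ to 3′ on the strand of the match with the matching bases in capitals.
OSGIN1: ttcataagcgTGAGTCAGCAggggcccgtg
KEAP1: caggtcaccaTGACTAAGCAgagccgggcg
GCLM: tggaagacaaTGACTAAGCAgaaatcgtag
TXNRD1: agagtcagaaTGACAAAGCAgaaatccact
GPX2: atccccaggaTGACTTAGCAaaaacaggtc
EPHX1: tgagattggcTGACTTGGCAggactgtgca
CBR1: ccagctagccTGACTTTGCAgaacccgcag
The OSGIN1 stretch is chr16:83953130-83953159 on the minus strand, and its match begins 100 bases before a RefSeq start at 83953240, which lies 4958 bases inside the gene as GENCODE bounds it. The KEAP1 stretch is chr19:10502784-10502813 on the plus strand, with the match 32 bases before a RefSeq start at 10502771, which lies 970 bases inside the GENCODE gene, and the stretch overlaps an annotated exon. Those of GCLM, TXNRD1 and GPX2 are chr1:93909446-93909475 (plus strand), chr12:104286919-104286948 (minus strand) and chr14:64942849-64942878 (plus strand). Those of EPHX1 and CBR1 are chr1:225825266-225825295 (plus strand) and chr21:36069854-36069883 (minus strand). The stretches of GCLM, TXNRD1, GPX2 and CBR1 also overlap annotated exons, and those of OSGIN1 and EPHX1 do not. Of the target list, 24 of 34 genes had a promoter in the table and 5 of these held a match, as did 4 of 26 proteasome genes and 1 of 29 other regulators. A match is a run of letters and not a measured binding site, and no match says only that these letters are absent from this window.

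The direction of several of the 9 genes depended on the scaling. By library totals 0 of the 9 genes were called higher and 7 lower, against 4.03% and 68.0% of all tested genes, and MAFK and OSGIN1 were not called. Scaled by the total of counts outside the mitochondrial genome, a setting chosen after the data were seen, 4 were called higher and 3 lower, against 14.5% and 34.5% of tested genes. The 4 were KEAP1 (0.32 ± 0.07), MAFK (0.47 ± 0.08), NQO1 (0.16 ± 0.06) and OSGIN1 (0.46 ± 0.12). The 3 were CUL3 (-0.78 ± 0.10), NFE2L1 (-0.52 ± 0.05) and MAFG (-0.31 ± 0.07). Under this scaling NFE2L2 had 148, 136 and 143 CPM in Nvs and 130, 145 and 138 in mod. The groups overlapped, and its log2 fold change of 0.05 ± 0.06 was not called (edgeR adjusted p = 0.564), nor was that of BACH1 (0.17 ± 0.11, edgeR adjusted p = 0.220). Removal of the trend with gene span left the 6 rises called and 3 genes lower, MAFG now among them (-0.24 ± 0.07, edgeR adjusted p = 0.0146), against 21.5% and 16.9% of tested genes.

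**Figure D2:**
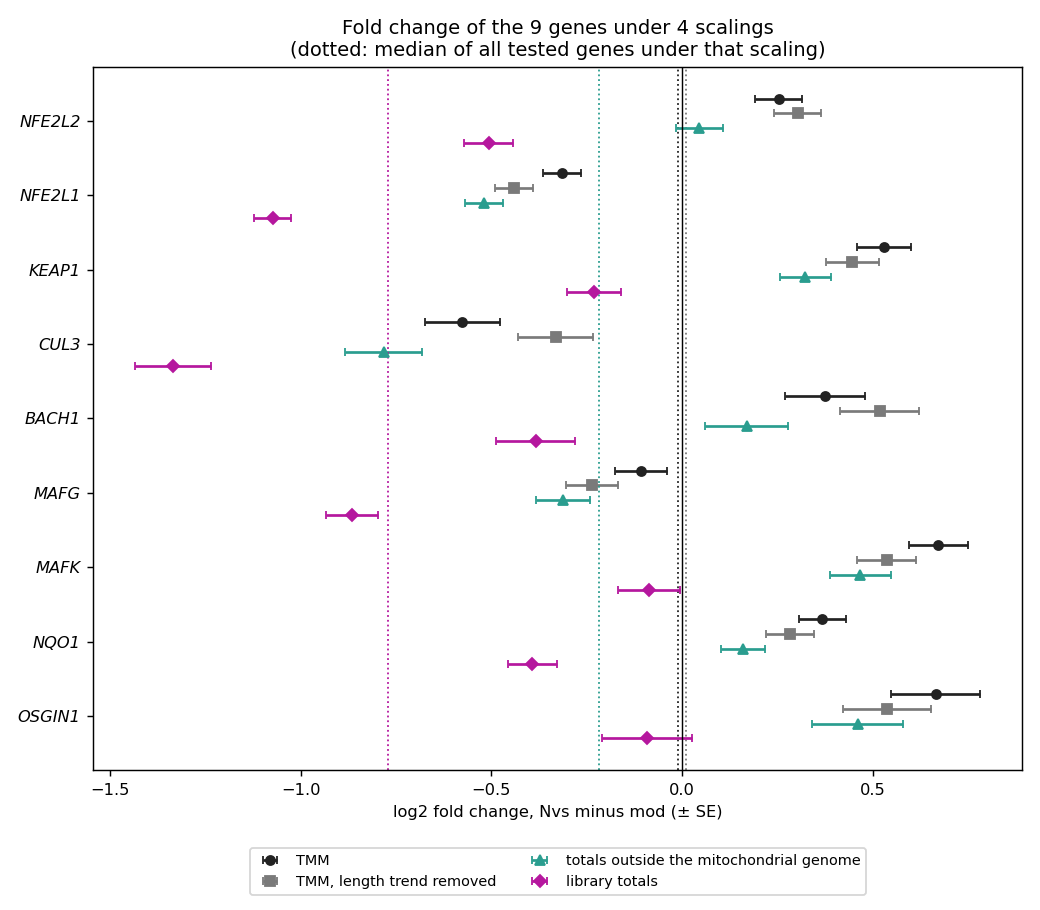
Log2 fold change (Nvs minus mod, ± SE) of the 9 genes under 4 scalings, with the median of all tested genes under each scaling as a dotted line. From TMM to the totals the 9 genes shift left together as the median gene does, to -0.22 for totals outside the mitochondrial genome and -0.77 for library totals.

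Ratios of a pair of genes within a library do not depend on the scaling of libraries, and 8 such ratios were formed from the FPKM values, which the authors normalised for transcript length and library total. With 3 libraries against 3, the smallest two-sided p of the exact permutation test is 0.1, so this test could call no ratio. In 4 of the 8 the groups did not overlap. The share over all pairs of genes was not computed, so this count is a description. Of single tested genes, 27.0% lay wholly above and 26.7% wholly below in CPM after TMM scaling. NFE2L2/CUL3 and NFE2L1/NFE2L2 each pair a gene called higher with a gene called lower. MAFG relative to MAFK was 0.985, 0.956 and 0.952 in Nvs and 1.53, 1.63 and 1.82 in mod (log2 difference -0.78 ± 0.07 SE). In FPKM the partner pair was thus near parity in all Nvs libraries, while MAFG was ahead in all mod libraries. All ratios carry the lengths behind the FPKM, which as constants set the level of a ratio but not its difference between groups. For NFE2L2 and OSGIN1 these lengths exceed the merged exons in GENCODE, as given below. Their counts may thus include reads from outside those exons, and whether such reads differ between groups was not tested.

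NFE2L2 relative to CUL3 was 3.68, 3.83 and 4.18 in Nvs and 2.23, 2.27 and 2.07 in mod (log2 difference 0.83 ± 0.07). NFE2L1 relative to NFE2L2 was 6.25, 7.27 and 6.47 in Nvs and 10.1, 9.37 and 10.1 in mod (-0.57 ± 0.08). OSGIN1 relative to NFE2L2 was 0.721, 0.658 and 0.566 in Nvs and 0.503, 0.438 and 0.523 in mod (0.41 ± 0.13), so these 2 groups came close. Each of the 4 ratios had an exact permutation p of 0.1, or 0.2 when adjusted over the 8 ratios.

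The other four ratios overlapped between groups. NFE2L2 relative to KEAP1 averaged 0.242 ± 0.0217 in Nvs and 0.294 ± 0.0302 in mod (SD, n = 3, exact permutation p = 0.2). NFE2L2 relative to BACH1 averaged 1.77 ± 0.247 in Nvs and 1.92 ± 0.175 in mod (SD, n = 3, exact permutation p = 0.6). The difference of this ratio between groups, -0.12 ± 0.14 on the log2 scale (SE), was thus smaller than its SE. NQO1 relative to NFE2L2 averaged 7.02 ± 0.249 in Nvs and 6.49 ± 0.398 in mod, and OSGIN1 relative to NQO1 0.0926 ± 0.0142 in Nvs and 0.0754 ± 0.00897 in mod (SD, n = 3, exact permutation p = 0.2 for each).

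**Figure D3:**
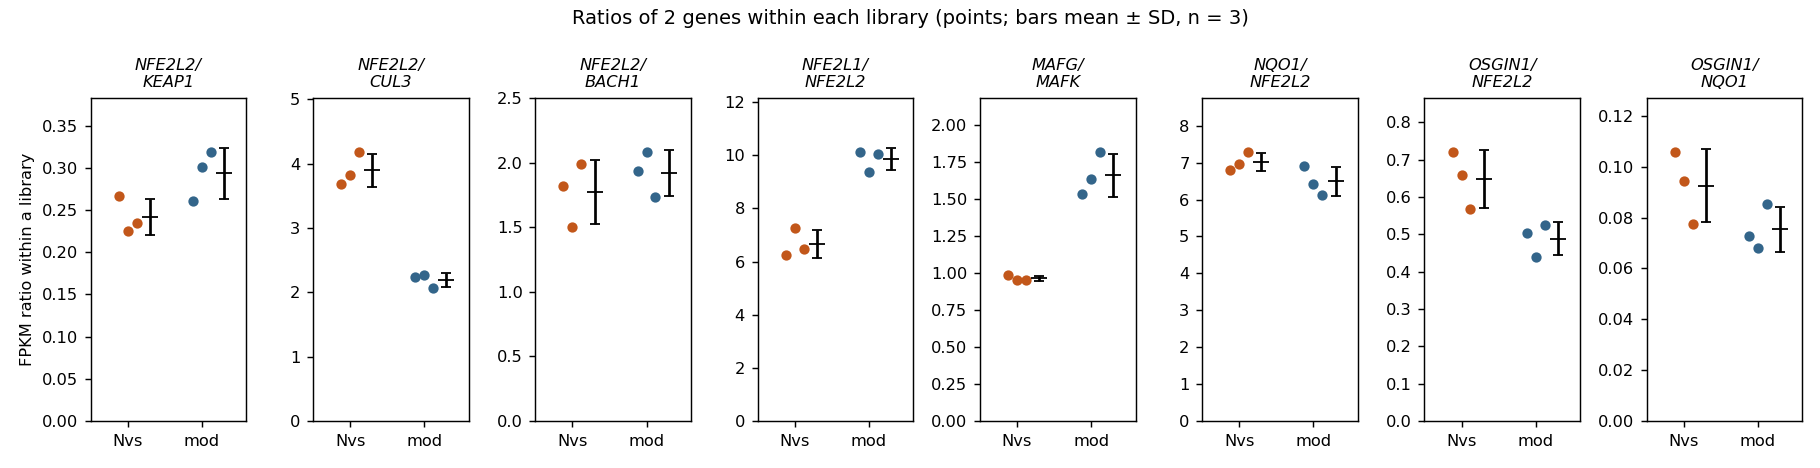
The 8 ratios of FPKM values within each library, with points for libraries and bars for mean ± SD of 3. MAFG/MAFK, NFE2L2/CUL3, NFE2L1/NFE2L2 and OSGIN1/NFE2L2 do not overlap between Nvs and mod, and the other four do.

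Per length, NQO1 and NFE2L1 were the most abundant of the 9 transcripts and CUL3 the least, in both groups. In FPKM, NQO1 had 31.5 ± 1.99 in Nvs and 41.3 ± 2.56 in mod, and NFE2L1 had 29.8 ± 0.814 in Nvs and 62.6 ± 1.45 in mod (SD, n = 3 each). The ranges of these 2 genes overlapped in Nvs, whereas in mod NFE2L1 was ahead in every library. KEAP1 followed with 18.6 ± 1.02 FPKM in Nvs and 21.8 ± 1.81 in mod. MAFG had 8.66 ± 0.639 FPKM in Nvs and 15.8 ± 0.659 in mod, and MAFK had 8.98 ± 0.508 in Nvs and 9.52 ± 0.794 in mod. In FPKM, MAFG and MAFK thus changed places between the groups, though in Nvs their ranges overlapped. In CPM, which is not divided by length, MAFG was above MAFK in every Nvs library (63.4, 58.8 and 55.5 against 54.9, 52.5 and 49.8).

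NFE2L2 was lower in this scale than MAFG and MAFK, with 4.48 ± 0.233 FPKM in Nvs and 6.36 ± 0.390 in mod. That position rests on the gene model: the ratio of count to FPKM implied a length of 15036 bases for NFE2L2, against 5979 bases of merged exons in GENCODE release 29. Divided by the GENCODE length, a choice made after the data were seen, NFE2L2 was at 11.3 ± 0.586 in Nvs and 16.0 ± 0.981 in mod, above MAFK in both groups (9.03 ± 0.512 and 9.59 ± 0.799). The deposited counts were not redone on the GENCODE exons, so reads from outside these exons may be included. The value may thus be too high, and the place of NFE2L2 in the order cannot be settled here. The lengths of OSGIN1 differed too, at 5581 implied bases against 3460, while those of the other seven differed by less. BACH1 (2.55 ± 0.253 FPKM in Nvs, 3.33 ± 0.269 in mod), OSGIN1 (2.91 ± 0.399 in Nvs, 3.10 ± 0.173 in mod) and CUL3 (1.15 ± 0.0969 in Nvs, 2.91 ± 0.187 in mod) closed the order. BACH1 and OSGIN1 overlapped in both groups, and in mod CUL3 overlapped OSGIN1 as well, but this too rests on the gene model. Divided by the GENCODE length, OSGIN1 was at 4.69 ± 0.644 in Nvs and 4.99 ± 0.279 in mod, above BACH1 (2.55 ± 0.252 and 3.32 ± 0.269) and CUL3 (1.16 ± 0.0974 and 2.92 ± 0.187). This value too uses the deposited counts and may be too high, so the place of OSGIN1 cannot be settled either.

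The other genes that control NRF2 and NRF1 moved in both directions relative to the typical gene. Of 33 listed, 32 were tested, of which 10 were higher (31.2%) and 10 lower (31.2%) in Nvs, against 22.8% and 20.5% of all tested genes, with a median log2 fold change of -0.05. By library totals 3 were higher and 24 lower, against 4.03% and 68.0% of tested genes, and with totals outside the mitochondrial genome 8 and 15, against 14.5% and 34.5%. Among the CNC and small MAF paralogues MAFF, the stress-inducible one of the small MAF genes, had 46.5 ± 1.72 CPM in Nvs and 17.7 ± 1.84 in mod (1.40 ± 0.09, edgeR adjusted p = 4.59e-08, 0.64 by library totals). NFE2L3, which encodes NRF3, fell to 13.4 ± 1.70 CPM in Nvs, against 23.2 ± 1.98 in mod (-0.79 ± 0.12, edgeR adjusted p = 0.000103). BACH2 had 23 reads in all and was not tested.

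SQSTM1 encodes p62, an autophagy receptor that binds KEAP1 and draws it from NRF2. It was at 130 ± 14.4 CPM in Nvs and 66.3 ± 7.23 in mod (0.98 ± 0.09, edgeR adjusted p = 1.16e-06, 0.22 by library totals), and the other four KEAP1-binding genes were not called. The beta-TrCP route degrades NRF2 without KEAP1 after phosphorylation by GSK3 kinases. Of 7 genes listed for this route and for the HRD1 ligase, 4 fell and 1 rose, against 20.5% and 22.8% of all tested genes. By library totals 7 were lower and 0 higher, against 68.0% and 4.03%. With the trend of gene span removed 1 was lower, the HRD1 gene SYVN1, and 1 higher, against 16.9% and 21.5%. GSK3B fell by 0.14 ± 0.06 (edgeR adjusted p = 0.04999), a call at the very threshold, and was the gene called higher with the span trend removed (0.24). BTRC, the beta-TrCP gene, was not called (-0.17 ± 0.10, edgeR adjusted p = 0.181).

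Among the genes that process or degrade NRF1, VCP, the segregase that pulls proteins out of the endoplasmic reticulum, fell by 0.60 ± 0.05, and SEL1L, of the same route, by 0.82 ± 0.11. The protease gene DDI2, whose product cleaves NRF1 into its active form, rose by 0.47 ± 0.11 (-0.29 by library totals). FBXW7, a ligase subunit, rose by 0.94 ± 0.08 and was at 0.18, no longer called, by library totals. NGLY1, which encodes the glycan-removing enzyme that NRF1 needs, was not called (0.21 ± 0.14, edgeR adjusted p = 0.256). From other groups of the list, CHD6, a chromatin remodeller listed with NRF2 coactivators and inhibitors, rose by 1.12 ± 0.07. It was at 0.36 by library totals. NEDD8, listed with the parts of the KEAP1 and CUL3 ligase, was named after its values were seen. It had uneven counts of 9, 6 and 82 in Nvs and 5, 20 and 335 in mod, and cannot be read.

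More NRF2 targets were up than down against the typical gene, while by library totals 4 were higher and 21 lower, against 4.03% and 68.0% of all tested genes. The rises took in most of the haem, iron, thioredoxin and xenobiotic genes, and the falls were mostly among glutathione genes. Of 34 listed beside NQO1 and OSGIN1, 33 were tested, and 19 were higher (57.6%) and 6 lower (18.2%) in Nvs, against 22.8% and 20.5% of all tested genes. With totals outside the mitochondrial genome 14 were higher and 9 lower, against 14.5% and 34.5%. The median log2 fold change was 0.29, and -0.47 by library totals. The list was chosen with earlier results of these data known, so its count is a description. Of 5 haem and iron genes, 4 rose, and by library totals 3 were higher and 1 lower. HMOX1, the haem oxygenase that BACH1 represses, had 24.5 ± 2.76 CPM in Nvs and 9.29 ± 0.673 CPM in mod (1.40 ± 0.12), and stayed higher by library totals, at 0.64. The ferritin genes FTL and FTH1 likewise stayed at 0.41 and 0.30 by library totals; they have processed pseudogenes, and the handling of reads with several matches is not given.

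All 4 thioredoxin genes rose, among them TXNRD1, thioredoxin reductase (0.30 ± 0.07, -0.45 by library totals), and SRXN1, sulfiredoxin, which was low at 2.03 ± 0.199 CPM in Nvs and 0.862 ± 0.233 CPM in mod and was no longer called by library totals (0.47). Of 9 tested glutathione genes, 5 fell and 1 rose. The one that rose was the peroxidase GPX2, to 307 ± 18.1 CPM in Nvs, against 123 ± 2.29 in mod (1.32 ± 0.06, edgeR adjusted p = 1.10e-09, 0.56 by library totals). GSR, which regenerates glutathione, fell by 0.55 ± 0.09, SLC7A11, the cystine importer, by 0.35 ± 0.11, the exporter gene ABCC3 by 0.30 ± 0.06 and GCLC, the catalytic subunit of glutathione synthesis, by 0.19 ± 0.07. The call of GCLC was close to the threshold (edgeR adjusted p = 0.0479), and with the trend of gene span removed GCLC, SLC7A11 and ABCC1 lost their calls, which left 2 of the 5 falls. Its partner subunit GCLM was not called (0.12 ± 0.06, edgeR adjusted p = 0.136). The xenobiotic hydrolase EPHX1 fell by 0.36 ± 0.05, while 7 of the 10 aldehyde, ketone and xenobiotic enzymes rose. Of all tested genes, 22.8% were higher and 20.5% lower. By library totals 0 of these 10 enzymes were higher and 6 lower, against 4.03% and 68.0% of all tested genes. Under that scaling 0 thioredoxin genes were higher and 2 lower, and 1 glutathione gene was higher and 7 were lower. MGST1 had 7 reads in all and was not tested.

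**Figure D4:**
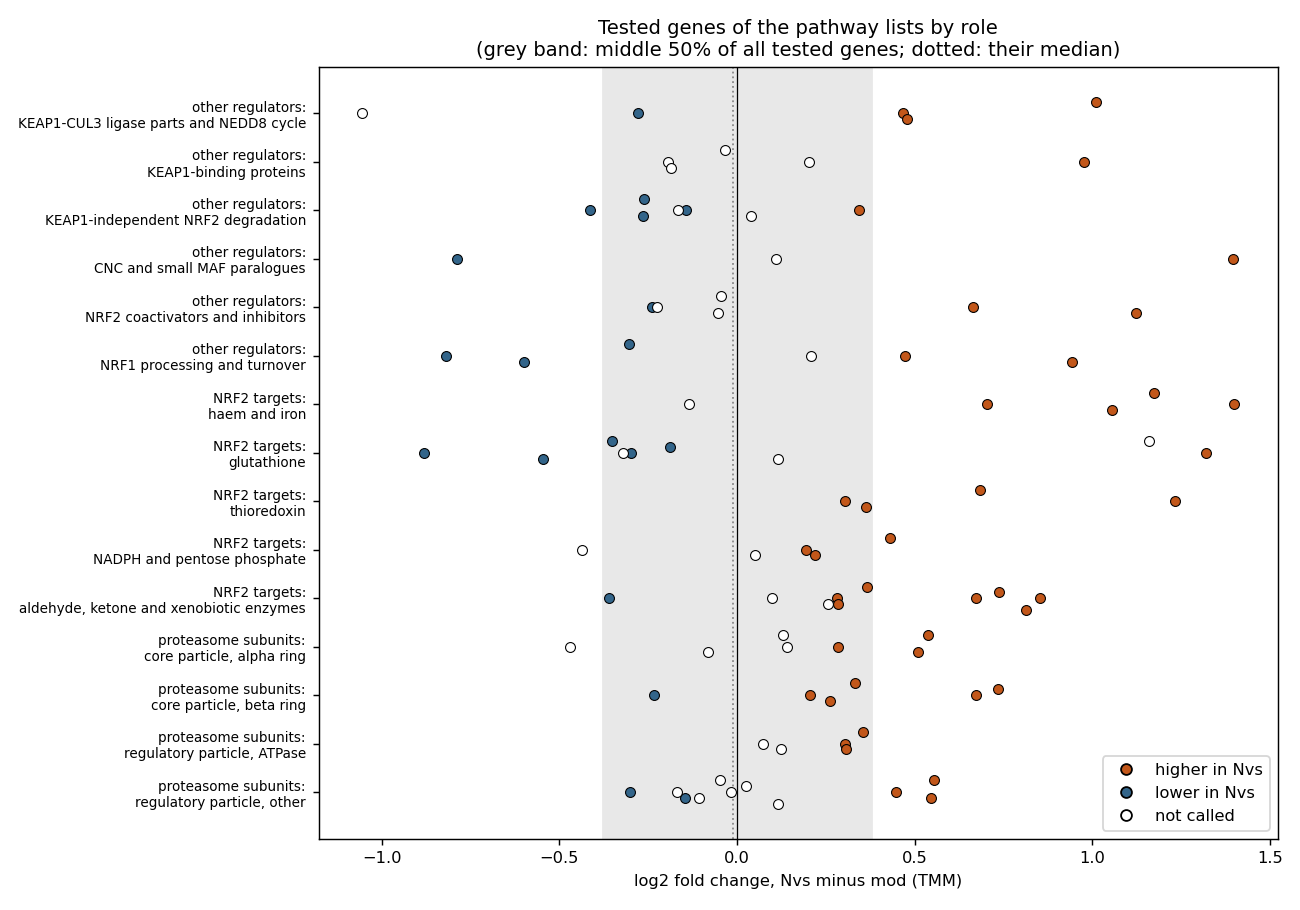
Log2 fold change (Nvs minus mod, TMM scaling) of each tested gene in the lists of other regulators, NRF2 targets and proteasome subunits, by role, with filled points for called genes. The haem and iron, thioredoxin and core beta ring rows lie mainly right of 0 and the glutathione row mainly left of it. The grey band, from -0.38 to 0.38, holds the middle 50% of all tested genes.

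Proteasome subunits, the best known targets of NRF1, were more often higher than lower relative to the typical gene, while NFE2L1 itself was lower. Of 31 listed, 29 were tested, with 14 higher (48.3%) and 3 lower (10.3%), against 22.8% and 20.5% of all tested genes, and the median was 0.14. With the trend of gene span removed the count was 9 and 3, against 21.5% and 16.9%. With totals outside the mitochondrial genome it was 7 and 7, against 14.5% and 34.5%, and by library totals 0 and 27, against 4.03% and 68.0%. The core subunit genes PSMB6 (0.73 ± 0.06), PSMB5 (0.67 ± 0.06) and PSMA7 (0.54 ± 0.06) had the smallest adjusted p among the rises, and all of them were below 0 by library totals. PSMB2 (-0.23 ± 0.06), PSMD12 (-0.30 ± 0.08) and PSMD2 (-0.15 ± 0.05) were the 3 that fell. PSMB3 and PSMC4, which every cell uses, had 2 reads and 1 read in all 6 libraries and were not tested.

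The genes most like 3 of the 9 in their profile over the 6 libraries were found by the root mean square difference of centred log2 CPM, among 7867 genes with a mean of at least 10 CPM. For NFE2L2 these were NIPBL (0.0174), PPA1 (0.0193) and MBD4 (0.0260). For KEAP1 they were IRX2 (0.0196), ISOC2 (0.0264) and MRPL18 (0.0307), and for NQO1 they were STX4 (0.0143), AIFM2 (0.0190) and DR1 (0.0211). With 2 groups of 3 libraries, such likeness rests mainly on the size of the group difference.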

How the data were processed

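Counts per gene symbol were deposited as 1 table and FPKM values, which the authors scaled by length and library total, as another, per the file headers. The build is hg38, per the submitters' processing notes. No source used here names the aligner, counter, annotation or strand setting, or says how multiply mapping reads were handled. Per the labels' protocols, libraries were made from poly(A)-selected RNA with dUTP strand marking and read as pairs. Count over FPKM gave 1 length per gene in all libraries within 1 percent, except in 26 of the 12579 genes whose counts total 200 or more.

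Counts were fitted in R 4.3.3 with edgeR 4.0.16: filterByExpr by group (minimum count 10, minimum total 15), TMM, quasi-likelihood F test with group as the sole term, Benjamini-Hochberg adjustment over all 14617 tested genes and a threshold of 0.05. Fold changes are Nvs minus mod, and the SE is the log2 fold change over the square root of F. DESeq2 1.42.0 and limma 3.58.1 on log2(FPKM + 1) served as alternatives. The procedure was tested on simulated data with 200 genes changed, evenly in both directions. These had less spread between replicates than the real libraries and no difference in composition between groups. The simulation thus does not bear on the choice of scaling. The gene span trend was a loess fit on log10 span (21769 of 21961 symbols matched in RefSeq).

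The members and lists were chosen with earlier results of these data known. The text names the 9 genes, 13 preset genes, the called genes with the 3 smallest adjusted p in each direction of each list, and the 3 genes most like NFE2L2, KEAP1 and NQO1. Other names are said to be outside this rule or mark genes not tested or overlapping. SYVN1 and ABCC1 are outside it too and are named for their calls with the span trend removed, and CBR1 is named for its promoter match. Replicates of a group differed by far more than counting noise (chi-square per degree of freedom 12.0 to 15.9).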

Additional observations from a re-analysis of the deposited data

How the results depend on the processing

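The directions of the members rest on the scaling. By library totals 589 genes were called higher (4.03%) and 9938 lower (68.0%) in Nvs. These held 0 and 7 members, 3 and 24 other regulators, 4 and 21 NRF2 targets and 0 and 27 proteasome subunits. The log2 fold changes that turned were those of NFE2L2 (-0.51), KEAP1 (-0.23), BACH1 (-0.38), MAFK (-0.086), NQO1 (-0.39) and OSGIN1 (-0.092). The deposited FPKM follow library totals by construction. Of 9884 genes tested with limma on log2(FPKM + 1), 536 were higher and 7839 lower. These held 0 and 7 members, 2 and 21 regulators, 4 and 20 targets and 0 and 25 proteasome subunits. The same 6 genes stood at -0.43, -0.22, -0.28, -0.075, -0.38 and -0.072. With a pseudocount of 0.1, 533 and 7822 of 9884 tested genes were called, with the same counts in each list. The values were -0.50, -0.23, -0.37, -0.082, -0.39 and -0.095. Without the filter on low FPKM, 556 of 21961 tested genes were higher and 9894 lower. These held 0 and 6 members, 2 and 22 regulators, 4 and 21 targets and 0 and 27 proteasome subunits. The 6 values were as with the filter.

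Totals outside the mitochondrial genome, chosen after the data were seen, gave 2110 genes higher (14.5%) and 5028 lower (34.5%), with 7 and 7 proteasome subunits. With the trend of gene span removed, 6 regulators and 3 targets were lower and 9 proteasome subunits higher. Of all tested genes, 16.9% were lower and 21.5% higher in that fit. DESeq2 gave 3462 and 3155 genes and equal counts in every list. No filter, a minimum count of 50 and leaving out the mitochondrial genome changed no member call and no list count by over 1.5 times. Leaving out 1 library gave 2745 to 3317 genes higher, 2414 to 3075 lower, and 5 to 6 members higher with 2 lower. The single member call lost was that of BACH1, without mod replicate 1 or 2.

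Same-numbered libraries did not deviate together (correlations -0.0178, -0.00770 and -0.0230). The labels do not say whether the numbers pair libraries, and these correlations cannot exclude a shared culture or batch. With a replicate block 3114 genes were higher and 2835 lower and no member call changed, and the block with the span trend removed left 5 regulators and 3 targets lower. No ratio could pass the exact permutation test with 3 libraries a group, and no parametric test was run on the ratios. The cause of these differences was not tested.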
